A study of Mus musculus with 4 samples.

Results

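The open chromatin around 8 genes of arginine, polyamine and nitric oxide metabolism was described in mouse bone marrow-derived macrophages (BMDMs), namely Slc7a2, Arg2, Ass1, Odc1, Srm, Sat1, Nos2 and Gch1. A region belonged to one of these genes when the deposited annotation gave that gene for its highest peak, so membership rested on the gene name and did not use the difference between groups. The 8 genes themselves were picked with earlier results of these data known. This gave 34 of the 60710 regions of the data set. Odc1 had 10 of them, Sat1 and Gch1 6 each, Slc7a2 4, Arg2 3, Ass1 and Srm 2 each and Nos2 1.

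Bone marrow cells of wild-type (Wt) C57BL/6 mice aged 8 to 12 weeks were differentiated for 6 days with L929 supernatant, which supplies the macrophage growth factor MCSF. Untreated macrophages (control) were compared with macrophages given IL-4 at 20 ng/ml for 1 h, and both groups shared the genotype and the differentiation. ATAC-seq, in which the Tn5 transposase cuts accessible DNA, gave 2 libraries a group, which the study's methods call biological replicates. The comparison asks where chromatin accessibility differs early after IL-4.

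Arginine enters macrophages through cationic amino acid transporters and is then contested by several enzymes. Arginases split it to ornithine and urea, and ornithine decarboxylase turns ornithine into putrescine, the first of the polyamines. Inducible nitric oxide synthase instead oxidises arginine to nitric oxide and citrulline, with tetrahydrobiopterin as cofactor, and this route is the textbook mark of classically activated macrophages, whereas arginase activity is that of alternatively activated ones.

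Peak height is the deposited score of a peak, whose unit is not stated and which was read as −log10 of its MACS2 q-value. It grows with sequencing depth, which is unknown here, because the lists hold no reads. The control libraries had 45250 and 41885 peaks with median heights of 8.04 and 7.46, and the IL-4 libraries 41978 and 39462 peaks with median heights of 7.69 and 6.41, so that IL-4 replicate 2 had the fewest and lowest peaks. Of 9 macrophage markers, 5 or 6 had a peak within 1 kb of the transcription start site (TSS) in each library, although Adgre1, Csf1r and Spi1 had none in any library. The T cell, B cell and neutrophil markers had none in any library, and the fibroblast marker Pdgfra had one in control replicate 1.

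The sequences of 7 regions carry the comparisons that follow, since they are the regions of the 2 largest height changes, those found in 1 group, the pair with a match to the STAT6 spacing, the most prominent region and the sole region of Nos2. Each is a window of fixed length at the middle of the region's highest peak, read from the plus strand of GRCm38.p6, the assembly behind mm10. Capitals mark exact matches on either strand to TTCNNNNGAA (the spacing that STAT6 prefers), TTCNNNGAA (the spacing of other STAT proteins), TGANTCA (AP-1) or GAGGAAGT (PU.1), and a name gives the distance of the region from the TSS of its gene.
Slc7a2 −11.2 kb, chr8:40851073-40851273: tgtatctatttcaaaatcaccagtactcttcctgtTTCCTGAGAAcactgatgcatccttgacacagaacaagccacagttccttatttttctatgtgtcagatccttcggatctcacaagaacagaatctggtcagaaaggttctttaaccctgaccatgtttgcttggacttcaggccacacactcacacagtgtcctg
Arg2 +10.3 kb, chr12:79140942-79141142: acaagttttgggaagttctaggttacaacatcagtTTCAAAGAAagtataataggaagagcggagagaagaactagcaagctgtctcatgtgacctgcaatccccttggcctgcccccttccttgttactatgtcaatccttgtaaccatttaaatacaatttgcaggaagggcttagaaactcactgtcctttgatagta
Odc1 −94.1 kb, chr12:17450647-17450847: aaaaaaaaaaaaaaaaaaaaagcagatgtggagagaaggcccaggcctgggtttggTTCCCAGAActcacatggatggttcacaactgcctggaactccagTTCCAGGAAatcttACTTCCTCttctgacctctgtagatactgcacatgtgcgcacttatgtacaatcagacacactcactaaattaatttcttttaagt
Gch1 +24.1 kb, chr14:47165194-47165394: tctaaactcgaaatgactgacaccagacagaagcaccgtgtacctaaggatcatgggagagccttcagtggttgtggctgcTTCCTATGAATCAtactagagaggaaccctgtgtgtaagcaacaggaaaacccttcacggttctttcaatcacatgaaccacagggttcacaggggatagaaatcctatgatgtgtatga
Gch1 +11.4 kb, chr14:47177915-47178115: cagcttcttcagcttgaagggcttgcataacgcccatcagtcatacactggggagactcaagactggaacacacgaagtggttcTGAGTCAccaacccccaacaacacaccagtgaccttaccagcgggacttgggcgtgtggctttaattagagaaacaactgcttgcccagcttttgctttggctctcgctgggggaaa
Gch1 +17.1 kb, chr14:47172217-47172417: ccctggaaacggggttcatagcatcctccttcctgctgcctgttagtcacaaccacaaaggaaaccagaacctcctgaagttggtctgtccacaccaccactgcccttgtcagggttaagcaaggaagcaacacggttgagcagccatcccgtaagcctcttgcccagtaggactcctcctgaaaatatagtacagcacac
Nos2 −4.2 kb, chr11:78916515-78916715: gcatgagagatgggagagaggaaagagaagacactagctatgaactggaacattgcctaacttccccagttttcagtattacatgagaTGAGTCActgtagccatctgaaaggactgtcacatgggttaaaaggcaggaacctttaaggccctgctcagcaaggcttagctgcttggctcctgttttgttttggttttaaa

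Slc7a2 encodes the transporter CAT2, which imports arginine. Its most prominent region lay 11.2 kb upstream of the TSS in intergenic DNA (mm10, chr8:40850992-40851346), with Adam39 as the nearest other protein-coding gene, 24131 bp away. Control cells had peak heights of 11.20 and 8.06 there, and IL-4 cells of 14.40 and 13.82. The groups did not overlap. In bulk nuclei, accessibility in more cells and more accessibility per cell cannot be told apart. The called peak was longer with IL-4, at 270 and 326 bp against 207 and 118 bp in the control. Length and height come from the same peak call, so this is no separate measure. The share of all regions with such a difference was not counted. After quantile normalisation the height was higher with IL-4 by 0.79 on the log2 scale (SE 0.41, 95% interval −0.03 to 1.62), which placed it at percentile 94.3 of the changes of all regions tested, but it did not pass the test (limma, adjusted p = 0.621). The window of this region was 1 of 2 among the 34 (5.9%) with a TTCNNNNGAA match, beside 6.35% of all windows.

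The Slc7a2 promoter region at +3 bp (chr8:40862053-40862532), which overlaps the first exon, had heights of 6.95 and 3.24 in the control and 3.99 and 9.32 with IL-4. These ranges overlapped, and the change of 0.60 (SE 0.57) did not pass (limma, adjusted p = 0.839). Single libraries moved the estimate, which was −0.18 without IL-4 replicate 2, 0.12 without control replicate 2, 1.08 without control replicate 1 and 1.40 without IL-4 replicate 1. The remaining regions of Slc7a2 were a peak of 3.01 at −533 bp in IL-4 replicate 1 and a peak of 3.34 at +434 bp in control replicate 1.

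Arg2 encodes the mitochondrial arginase. None of its 3 regions lay at the TSS, and all of them were in intron 2 of 7. The region at +10.3 kb (chr12:79140888-79141132), which also overlaps an exon of the long non-coding RNA Gm40462, had heights of 4.69 and 4.71 in the control and 10.64 and 9.76 with IL-4. Both IL-4 libraries stood above both control libraries, with means of 4.70 ± 0.0141 and 10.2 ± 0.622 (SD, n = 2). The called peak was 211 and 144 bp long in the control and 180 and 176 bp with IL-4, so the lengths overlapped. The normalised height was higher with IL-4 by 1.35 on the log2 scale (SE 0.52, 95% interval 0.31 to 2.39), a fold of 2.55 and the largest change among the regions of the 8 genes, at percentile 99.2 of all changes. It had an unadjusted p of 0.0116 from limma and did not pass after adjustment (adjusted p = 0.43). Its mean height lay at percentile 22.8 of the regions tested, among the weaker peaks. Its window held no TTCNNNNGAA and no AP-1 match, and its only STAT-like match was the TTCNNNGAA printed above.

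The Arg2 region at +1.5 kb (chr12:79132209-79132437) had heights of 5.36 and 5.91 in the control and 2.95 and 7.43 with IL-4. The IL-4 libraries lay on both sides of the control libraries, and the change was −0.03 (SE 0.57, limma, adjusted p = 0.997). The region at +10.7 kb had a peak of 4.75 in control replicate 1 and none in the other libraries.

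Ass1 encodes argininosuccinate synthase, which starts the recycling of citrulline to arginine. Its promoter region at −77 bp (chr2:31470134-31470252) had a peak in control replicate 1, of 4.06, and none in the other libraries. The region at −27.7 kb (chr2:31442533-31442763), annotated as intergenic by the authors and lying within Hmcn2 but on none of its exons in RefSeq, had heights of 10.38 and 5.33 in the control, none in IL-4 replicate 1 and 3.73 in IL-4 replicate 2. Neither region had a peak in all 4 libraries, so no change was estimated for Ass1.

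**Figure D1:**
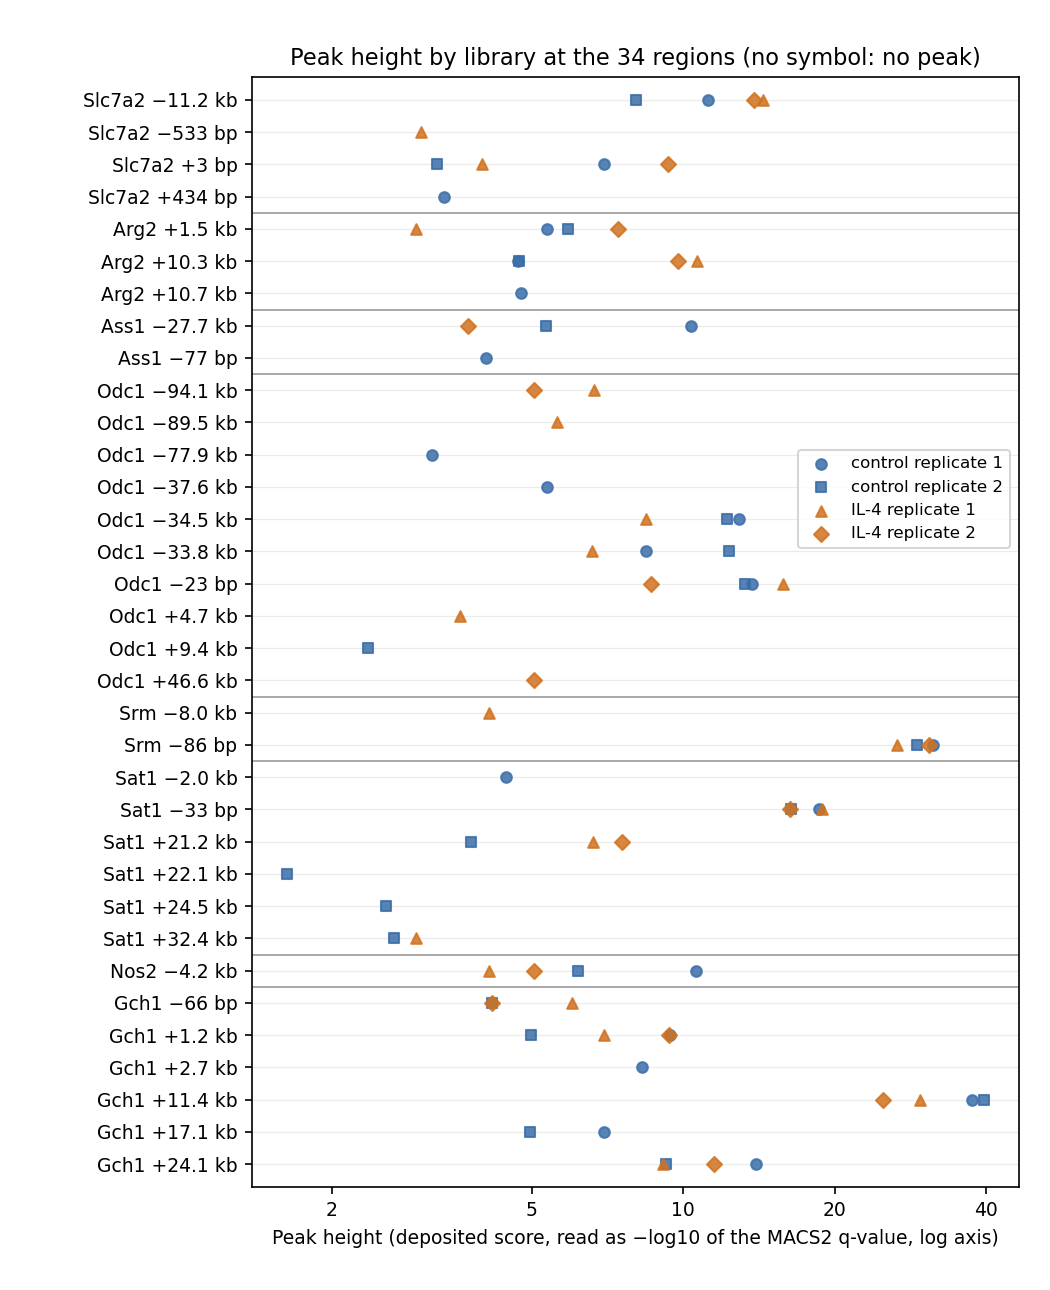
Peak height (deposited score, read as −log10 of the MACS2 q-value, log axis) of the 34 regions in each library, by gene and distance from the TSS, where a missing symbol means no peak. The IL-4 libraries stand to the right of the control libraries at Arg2 +10.3 kb and Slc7a2 −11.2 kb and to the left at Gch1 +11.4 kb and Nos2 −4.2 kb, and 15 regions have 1 symbol.

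Odc1 encodes ornithine decarboxylase, the rate-limiting enzyme of polyamine synthesis. Its promoter region at −23 bp (chr12:17544575-17545048) had heights of 13.71 and 13.28 in the control and 15.80 and 8.62 with IL-4. The IL-4 libraries lay on both sides of the control libraries, and the change was 0.03 (SE 0.39, 95% interval −0.75 to 0.81, limma, adjusted p = 0.993), which turned to −0.21 with no scaling.

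Of the 34 regions, 1 was IL-4-only, that is with a peak in both IL-4 libraries and in neither control library. It lay 94.1 kb upstream of Odc1 (chr12:17450670-17450815), with heights of 6.65 and 5.05 with IL-4. Nol10 was the nearest other protein-coding gene, 20575 bp away, so the tie to Odc1 rests on the nearest-TSS annotation. Over all regions, 2.53% were IL-4-only. Its window held a pair of TTCNNNGAA matches and a PU.1 match. With peaks at or below the pooled median height of 7.37 left out, the region was no longer present.

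A pair of neighbouring regions at −34.5 kb and −33.8 kb of Odc1 had peaks in 3 libraries. At −34.5 kb (chr12:17510205-17510539) the heights were 12.89 and 12.22 in the control and 8.44 in IL-4 replicate 1. At −33.8 kb (chr12:17511023-17511248) they were 8.45 and 12.35 in the control and 6.58 in IL-4 replicate 1. In both regions IL-4 replicate 2 had no peak and the other IL-4 library was lower than both control libraries. These are 2 of 34 regions (5.88%) that lacked a peak in IL-4 replicate 2 alone, beside 5.8% of all regions, and that library had the lowest median height, whose part in this was not tested. The other 6 regions of Odc1 each had a peak in 1 library, with heights from 2.36 to 5.60.

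Srm encodes spermidine synthase. Its promoter region at −86 bp (chr4:148591154-148591637) was among the highest peaks of the data, at percentile 96.8, with heights of 31.30 and 29.17 in the control and 26.59 and 30.76 with IL-4. The groups overlapped, and the change was 0.04 (SE 0.23, 95% interval −0.41 to 0.49, limma, adjusted p = 0.984), which turned to −0.08 with no scaling. A region at −8.0 kb, 1067 bp from Exosc10, had a peak of 4.11 in IL-4 replicate 1 and none elsewhere.

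Sat1 encodes spermidine/spermine acetyltransferase, which marks polyamines for export and breakdown. Its promoter region at −33 bp (chrX:155216195-155216669) had heights of 18.57 and 16.40 in the control and 18.88 and 16.32 with IL-4. The heights overlapped as deposited, and the normalised change was 0.21 (SE 0.31, 95% interval −0.42 to 0.84, limma, adjusted p = 0.92), which was 0.0084 with no scaling. The region at +21.2 kb (chrX:155195105-155195266) had no peak in control replicate 1, a height of 3.78 in control replicate 2 and heights of 6.62 and 7.56 with IL-4. Both IL-4 heights were above the control height that was measured, but no change was estimated with a peak missing. The other 4 regions of Sat1 had peaks in 1 or 2 libraries, with heights from 1.63 to 4.44.

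**Figure D2:**
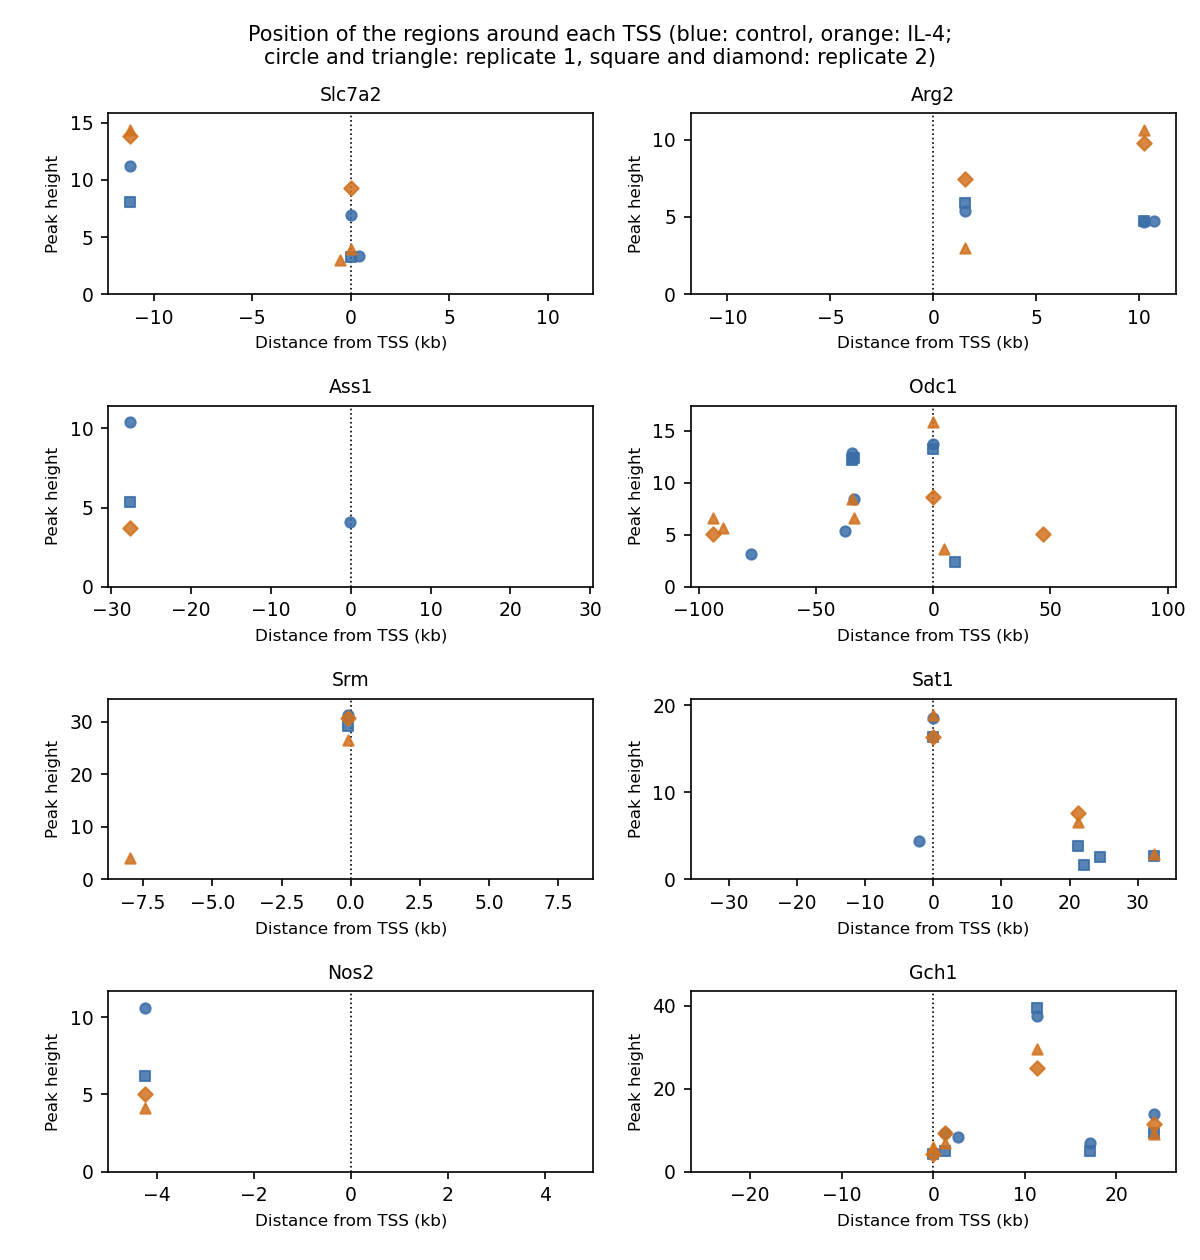
Peak height (vertical axis, deposited score, read as −log10 of the q-value) against distance from the TSS (horizontal axis, kb; dotted line at the TSS), 1 panel per gene and 1 symbol per library. Odc1, Srm and Sat1 have their highest region at the TSS, Gch1 and Arg2 inside the gene and Slc7a2 and Ass1 upstream, and Nos2 has a single region at −4.2 kb.

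Nos2 encodes inducible nitric oxide synthase. Its 1 region lay 4.2 kb upstream of the TSS in intergenic DNA (chr11:78916517-78916708), and no peak lay at its promoter in any library. The heights were 10.62 and 6.18 in the control and 4.11 and 5.05 with IL-4. Both IL-4 heights as deposited were below both control heights, and after normalisation the groups overlapped, with a change of −0.59 (SE 0.54, 95% interval −1.67 to 0.48, limma, adjusted p = 0.826). The change was −0.28 without IL-4 replicate 1, −0.32 without control replicate 1, −0.88 without control replicate 2 and −0.92 without IL-4 replicate 2. Its mean height was low among the regions tested, at percentile 15.0, and its window held the AP-1 match printed above.

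Gch1 encodes GTP cyclohydrolase 1, which starts the synthesis of tetrahydrobiopterin. The most prominent region of all 8 genes lay in its intron 1 at +11.4 kb (chr14:47177850-47178444), where it overlaps the pseudogene Gm18811, and its mean height was at percentile 98.1. The heights were 37.52 and 39.52 in the control and 29.47 and 24.90 with IL-4. Both IL-4 libraries were below both control libraries, before and after normalisation. The normalised change was −0.40 (SE 0.21, 95% interval −0.82 to 0.01) and did not pass (limma, adjusted p = 0.62), and it was −0.27 with heights scaled to the same median. The window held an AP-1 match.

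Of the 34 regions, 1 was control-only, that is with a peak in both control libraries and in neither IL-4 library, and it also lay in intron 1 of Gch1, at +17.1 kb (chr14:47172189-47172445). Its heights were 6.96 and 4.95. Over all regions, 4.33% were control-only. The window held none of the motifs searched, and the region was no longer present with peaks at or below the pooled median height left out.

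The Gch1 promoter region at −66 bp (chr14:47189320-47189692) was a weak peak, absent from control replicate 1 and of 4.17 in control replicate 2, 6.00 in IL-4 replicate 1 and 4.17 in IL-4 replicate 2. The intronic region at +1.2 kb had heights of 9.40 and 4.99 in the control and 6.97 and 9.38 with IL-4, and that at +24.1 kb had 13.97 and 9.25 in the control and 9.13 and 11.52 with IL-4. In both the groups overlapped, with changes of 0.48 (SE 0.51) and 0.08 (SE 0.43) that did not pass (limma, adjusted p = 0.87 and 0.982), and the second turned to −0.15 with no scaling. At +1.2 kb the change was 0.24 with no scaling, 0.11 without IL-4 replicate 2, 0.14 without control replicate 2, 0.79 without control replicate 1 and 0.86 without IL-4 replicate 1. At +24.1 kb it was −0.25 without IL-4 replicate 2, −0.13 without control replicate 2, 0.28 without control replicate 1 and 0.41 without IL-4 replicate 1. The window at +24.1 kb held the other TTCNNNNGAA match, which ran into an AP-1 match. A last region at +2.7 kb had a peak of 8.26 in control replicate 1.

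Across the 8 genes, 11 of the 34 regions (32.4%) had a peak in all 4 libraries, beside 41.9% of all regions, and 15 (44.1%) had a peak in 1 library, beside 29.6%. Of these 15, 7 were found in control replicate 1, 3 in control replicate 2, 4 in IL-4 replicate 1 and 1 in IL-4 replicate 2. As shares of the 34 these were 20.6%, 8.82%, 11.8% and 2.94%, in that order. The same shares over all regions were 9.38%, 6.69%, 6.66% and 6.84%. The heights of the 15 ran from 1.63 to 8.26 with a median of 4.06. The height in the 11 shared regions ran from 2.95 to 39.52.

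None of the 11 shared regions passed an adjusted p of 0.05 in limma, beside 0.0157% of the 25442 regions tested that were higher and 0.00786% that were lower with IL-4, so calls were rare in the whole data set. At an unadjusted p under 0.05, 1 of the 11 was higher with IL-4, at Arg2 +10.3 kb, and 0 were lower, beside 4.12% and 4.15% of all regions tested. After normalisation both IL-4 heights were above both control heights in 3 regions (Arg2 +10.3 kb, Slc7a2 −11.2 kb and Sat1 −33 bp), beside 19.2% of all regions tested, and below them in 1 (Gch1 +11.4 kb), beside 18.6%. The median change of the 11 was 0.08, with 8 higher and 3 lower, beside a median of −0.0006 over all regions tested. With no scaling, where the median of all regions was −0.21, the changes at Odc1 −23 bp, Srm −86 bp and Gch1 +24.1 kb were below 0 and the median of the 11 was −0.08. With 1 library left out and quantile normalisation kept, the median covered the regions with a peak in every remaining library. It was −0.18 over 13 regions without IL-4 replicate 2 and 0.12 over 11 without control replicate 2. Without control replicate 1 it was 0.28 over 13, and without IL-4 replicate 1 it was 0.33 over 12. With 2 libraries a group, the smallest p an exact two-sided permutation test of a single region can give is 0.333.

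**Figure D3:**
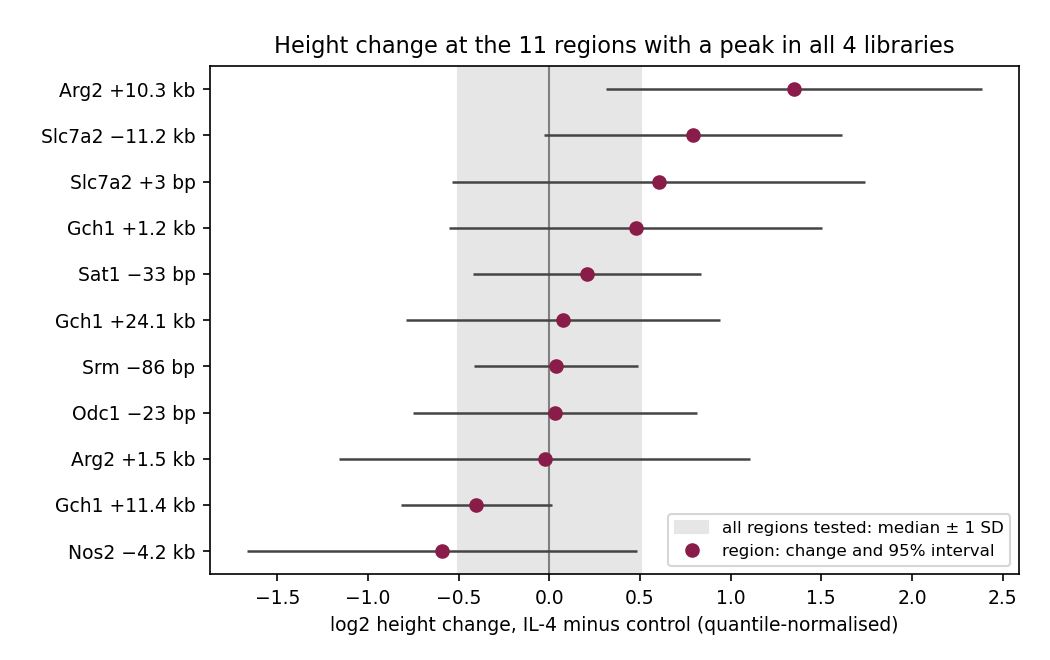
Change in normalised log2 peak height, IL-4 minus control (horizontal axis), at the 11 regions that every library shared, with the 95% interval of limma as a line and the median ± 1 SD of all 25442 regions tested in grey. The interval of Arg2 +10.3 kb (0.31 to 2.39) lies above 0 and the others span it, and with no scaling the points of Odc1 −23 bp, Srm −86 bp and Gch1 +24.1 kb fall below 0.

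**Figure D4:**
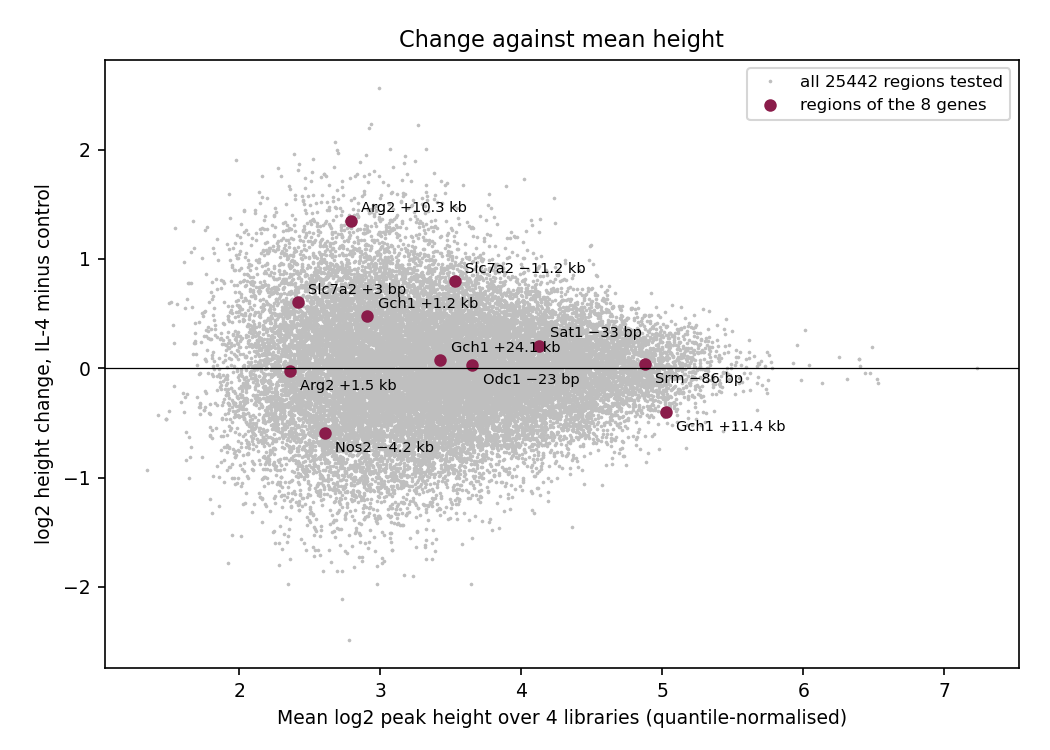
Change in normalised log2 peak height, IL-4 minus control (vertical axis), against mean log2 height over the 4 libraries (horizontal axis), for all 25442 regions tested (grey) and the 11 regions of the 8 genes (dark). Arg2 +10.3 kb sits near the upper edge of the weak peaks, at percentile 99.2 of the changes, and Gch1 +11.4 kb among the highest peaks with a change of −0.40.

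Motif matches were counted in the windows of all 34 regions, as a description of their letters. An AP-1 match (TGANTCA) was found in 15 of the 34 windows (44.1%), beside 20.7% of the 60710 windows. Among the regions with a peak in every library it was found in 4 of 11, beside 22.18%. Odc1 had 6 of them, Gch1 and Sat1 3 each, and Arg2, Ass1 and Nos2 1 each. None of the 8 regions within 1 kb of a TSS held one, so all 15 were among the 26 regions farther away. The share over all regions at such distances was not counted. TTCNNNNGAA was found in 2 windows (beside 6.35% of all), TTCNNNGAA in 2 (5.9%), GAGGAAGT in 3 (9.33%), GGGANNNNCC, an NF-kB form, in 7 (12.9%) and the CRE letters TGACGTCA in 0 (0.96%). The E-box CACGTG, which MYC and related factors bind, was found in 4 (4.8%), at the promoter regions of Srm, Ass1 and Slc7a2 and at Arg2 +1.5 kb.

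The RefSeq promoter sequences (GRCm38.p6, from 250 bases before to 50 after the start) held entries for 4 of the 8 genes, namely Ass1, Odc1, Gch1 and Sat1. The Ass1 promoter held an E-box and a GGGANNNNCC match, and the other 3 held none of the 7 motifs. These matches were found in 7.15% and 20.7% of 32851 promoters. That count left out the promoters of 1 autosome, on which none of the 8 genes lies. The GC content was 78.0% for Odc1, 74.0% for Ass1 and 60.3% for both Gch1 and Sat1.

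The other 47 genes listed for these routes, among them the remaining arginine transporters, urea cycle enzymes, nitric oxide regulators, tetrahydrobiopterin enzymes and polyamine enzymes, had 159 regions at 40 genes. In 76 of these regions every library had a peak, and 0 of the 76 passed an adjusted p of 0.05 in limma, while 2 were higher and 2 lower with IL-4 at an unadjusted p under 0.05, beside 4.12% and 4.15% of all regions tested, and their median change was 0.07. IL-4-only regions numbered 3 (1.89% of the 159, beside 2.53% of all regions). All 3 were among the 32 regions of the genes of arginine use and synthesis (9.38%), and each other list had 0. A pair of them belonged to Arg1, the cytosolic arginase, at −773 bp with heights of 3.98 and 5.77 and at −25.4 kb with 2.45 and 2.22, and the third to Oat, ornithine aminotransferase, at +34.6 kb with 5.34 and 2.49. Control-only regions numbered 10 (6.29%, beside 4.33% of all regions). Of these, 6 were among the 49 regions of the polyamine genes (12.24%), at Smox, Oaz2, Amd1 and Azin1. The nitric oxide genes had a similar share, with 2 of 17 regions (11.76%), at Nos3 and Ddah2, and each other list had 0 or 1. The 6 at the polyamine genes lay from 0.5 to 69.1 kb from the TSS. The tallest of the 10 was at −617 bp of Slc7a7, an arginine exporter subunit, with heights of 14.91 and 6.42.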

How the data were processed

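ATAC-seq peak lists of 4 libraries, 2 control and 2 IL-4 by their labels, were analysed. The authors aligned reads to mm10 with BWA, called peaks with MACS2 in each library, removed blacklisted regions and annotated peaks with HOMER, and their processing notes name BWA 0.7.10, SAMtools 0.1.19, MACS2 2.0.10 and HOMER 4.2. Handling of the Tn5 shift and of duplicates is not given in the sources used here. The deposited score was read as −log10 of the q-value, from a lowest value of 1.3, near −log10 of 0.05. The unit is not stated, and the methods of the authors name a q-value limit of 0.01, a score of 2, under which 133 to 603 peaks per library lay. The files hold no counts, so depth is unknown.

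Autosomal, X and Y peaks were merged at an overlap of 1 bp or more, and a region took the highest score of each library. For the 25442 regions seen in every library, log2 heights were quantile-normalised and compared between groups by limma 3.58.1 (R 4.3.3, eBayes with trend, Benjamini-Hochberg over all regions). Alternatives changed the peak minimum, merging, overlap, gene assignment, scaling, variance trend, replicate block, handling of missing peaks and the libraries used. The limma fit was tested on simulated heights, with changes larger than any at the regions of the 8 genes. Power at smaller changes was not tested. Genes and lists were chosen with earlier results of these data known. Every region of the 8 genes was accounted for, and other pathway genes were named only where a region passed the adjusted test or was found in 1 group. Whether the replicate numbers pair the libraries is not stated. The difference between replicates in the control was not correlated with that in IL-4 (Pearson r = 0.0068 and Spearman rho = 0.0064 across regions, which are not independent). This cannot settle the pairing, which stays unknown.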

Additional observations from a re-analysis of the deposited data

How the results depend on the processing

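In 14 alternative settings, none of the regions of the 8 genes passed an adjusted p of 0.05. Of 149 alternative values for single regions, 137 kept their direction and 12 reversed. The direction could not change in the fit without a variance trend, because the trend enters the variance estimate alone. Nor could it change with a replicate block, because the design is balanced. The alternative gene assignment also left the values as they were. Reversals occurred with no scaling, with 1 library left out and with peaks at or below the pooled median dropped. Odc1 −23 bp was −0.0516 when peaks at or below the pooled median were dropped and −0.2094 with no scaling, and it ran from −0.2323 to 0.2901 when 1 library was left out. With no scaling, Srm −86 bp was −0.0794 and Gch1 +24.1 kb −0.1485. Leaving out 1 library gave −0.1777 to 0.2587 at Srm −86 bp, −0.2477 to 0.4073 at Gch1 +24.1 kb, −0.8649 to 0.8161 at Arg2 +1.5 kb and −0.1818 to 1.3955 at Slc7a2 +3 bp. It gave −0.1818 to 0.333 for the median change of the 11 to 13 regions with a peak in every remaining library. The median of the 11 was −0.0794 with no scaling. Leaving out 1 library also gave 1 to 5 IL-4-only and 2 to 8 control-only regions, as fewer libraries define them. Over all alternatives that could be tested, the change ran from 1.12 to 1.45 at Arg2 +10.3 kb (limma, adjusted p from 0.27 to 0.814), from 0.57 to 0.95 at Slc7a2 −11.2 kb (0.301 to 0.889) and from −0.51 to −0.27 at Gch1 +11.4 kb (0.381 to 0.903). When peaks at or below the pooled median of 7.37 were dropped, Arg2 +10.3 kb became IL-4-only and Odc1 −33.8 kb control-only. Both labels restate the heights given above and are no separate result. The control heights of 4.69 and 4.71 at Arg2 and the IL-4 height of 6.58 at Odc1 lay under that limit. The fit with a replicate block gave 0 calls among the regions, a median change of 0.0757 and an adjusted p of 0.382 at Arg2 +10.3 kb, and 14 calls over all regions beside 6 without it. Heights carry no read counts, so a missing peak means that none was called at an unknown depth.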
